A study of Homo sapiens with 11 samples.

Results

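The mRNA of IMR32 cells that received a lentivirus with a hairpin against MYCN was compared with that of cells that received a control virus at the same hour. The comparison took the 9 arrays that carried virus among the 11 arrays of the series, 6 of them labelled shMYCN#3 and 3 labelled SHC002, and it covered 11865 of the 19775 genes named on the array. IMR32 cells are a long-established line from a human neuroblastoma that carries many copies of MYCN, and they were grown in DMEM with serum. Cells were transduced with lentiviral particles and collected 24, 48 or 72 hours later, and total RNA was labelled with biotin in one cycle and hybridised to one-colour Affymetrix arrays. At each hour there was 1 array with the control virus SHC002 and there were 2 arrays, A and B, with the hairpin shMYCN#3. The remaining 2 arrays held cells without virus at 0 hours and entered no test. All shMYCN arrays carried the same hairpin, so what follows a loss of MYCN and what follows this one hairpin sequence cannot be told apart. The labels do not say that A and B were separate cultures, so the spread between these duplicates may be technical only. The p-values of the virus difference rest on that spread and on how the difference varied over the hours.

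MYCN is a basic helix-loop-helix leucine zipper transcription factor that binds E-box sequences in DNA together with its partner MAX. It is closely related to MYC, is normally active in the precursors of the sympathetic nervous system, and its amplification marks an aggressive class of neuroblastoma. MYC family proteins are known for raising genes of ribosome production, nucleotide synthesis and cell division, and their withdrawal in neuroblastoma cells is known to be followed by exit from the cell cycle and outgrowth of neurites.

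Signals are the intensities that the authors deposited, on a linear scale on which the middle probe sets of every array average 100, so a change in the total RNA per cell cannot be seen. Differences are log2(signal + 16) of the arrays labelled shMYCN minus those labelled control virus, fitted with limma over the 9 arrays with the hour as a factor, and each stands with its standard error (n = 6 against 3). Signals are given in the order of 24, 48 and 72 hours, for shMYCN with arrays A and B of each hour. A gene was called at a Benjamini-Hochberg adjusted p under 0.05 over all genes tested. Array medians lay between 14.9 and 16.7, the 3' to 5' signal ratio of GAPDH between 0.970 and 1.07, and duplicates correlated across genes at r = 0.987 to 0.994, genes not being independent replicates. The bacterial RNA spikes of array A at 48 hours were 2.29-fold of the control mean; its part in the results was not tested, and values without this array are given where a call depends on it. Of 14 noradrenergic neuroblastoma markers 12 were on the array and 11 were tested. The summed signal of the 12 was 7816 to 8447 on the control arrays and 8162 to 9509 on the shMYCN arrays. GATA3 (2873 to 3499) and PHOX2A (966.5 to 1389.6) were among the brightest. STMN2, which is in this sum, read 67.4 to 81 on the control arrays and 119.4 to 1106.4 on the shMYCN arrays. Of 6 mesenchymal markers 4 were tested, and the sums of all 6 were 5201 to 6164 and 4059.6 to 5561. No Schwann cell marker of 7 and no leukocyte marker of 6 was bright enough to be tested, and 1 endothelial marker of 4 was. In a whole culture, fewer cells that express a gene and less RNA of that gene per cell cannot be told apart.

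MYCN mRNA itself did not pass the test in either direction on any of its probe sets. The brightest probe set gave signals at 24, 48 and 72 hours of 5332, 5389.7 and 5055 on the control arrays and 5488 and 4567, 5241 and 5317, and 5624 and 4946 on the shMYCN arrays. The groups overlapped at every hour except 48 hours, where both shMYCN arrays lay slightly below the control array (log2 difference over the hours -0.02 ± 0.08, limma adjusted p = 0.928). The next probe set read 406, 520.1 and 370.4 on the control arrays and 254 and 292, 319 and 624, and 651 and 796 on the shMYCN arrays. On it the shMYCN arrays were below the control array at 24 hours and above it at 72 hours, and the fitted difference was 0.06 ± 0.27 (limma adjusted p = 0.936). The other 2 of the 4 probe sets above the filter on dim signals differed by -0.01 ± 0.24 and -0.11 ± 0.15 (limma adjusted p = 0.994 and 0.750). At 24 hours their shMYCN arrays also lay below the control array, at 130.2 and 162.4 against 216.2 and at 20.1 and 31.5 against 36.7. At 72 hours they read 338.8 and 404 against 224.9, and 44 and 60.9 against 44.4. Single hours were not tested. With quantile scaling the brightest probe set turned to 0.11, and it did not pass there either (limma adjusted p = 0.194). The lowering that the label implies was therefore not measured at the mRNA level, protein was not measured here, and every direction below rests on the label of the virus.

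**Figure D1:**
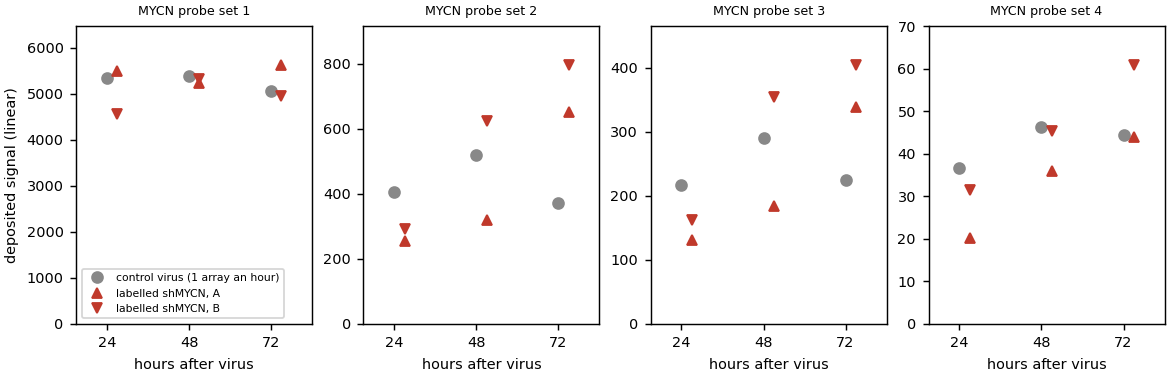
Signal of the 4 MYCN probe sets above the filter on dim signals (vertical axis, deposited linear intensity) against hours after virus (horizontal axis), with control arrays as grey circles and shMYCN arrays A and B as red triangles, drawn slightly to the right. The brightest probe set stays between 4567 and 5624 on all 9 arrays, and over the 3 hours the groups overlap on each of the 4.

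The difference between the viruses was broad and slightly tilted upwards in number. Of 11865 genes, 3007 were called (25.3 percent), 1781 of them higher (15 percent) and 1226 lower (10.3 percent) in the arrays labelled shMYCN, and the median over all genes was 0.04 on the log2 scale. With each array scaled to its median, the split was 1312 higher and 1479 lower. Of the called genes, 76 higher ones passed the filter on dim signals only through the shMYCN arrays and 9 lower ones only through the control arrays, and for these a difference follows from the filter. Large differences were about as frequent upwards as downwards: 434 genes were called and at least 1.5-fold higher (3.66 percent) and 414 at least 1.5-fold lower (3.49 percent). Beyond 2-fold the balance was the other way, with 45 genes higher and 99 lower. Without reference to a test, all 6 shMYCN arrays lay above the control array of their hour for 2552 genes (21.5 percent) and below it for 1745 (14.7 percent), and this held for 2706 of the 3007 called genes (90.0 percent). Each hour had 1 control array, so leaving it out takes its hour out of the comparison. With the control array of 48 hours left out 881 genes were called, without that of 72 hours 1011, without all arrays of 48 hours 239 and without all arrays of 72 hours 639. For the themes below, counts without these control arrays are given beside the full counts.

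The genes furthest below the control on every single array were a mixed group of 12, each with all 6 shMYCN arrays at least 1.00 below the control array of its hour on the log2 scale. E2F5 encodes an E2F factor that works with the pocket proteins of the cell cycle, and its signals at 24, 48 and 72 hours were 276, 269.6 and 297 on the control arrays and 83.3 and 96.7, 99.1 and 95.3, and 75.2 and 81.9 on the shMYCN arrays. Every shMYCN array lay far under the control level from 24 hours on, with no overlap (log2 difference -1.51 ± 0.10, limma adjusted p = 4.33e-05). OIP5 is a subunit of the Mis18 complex, which prepares centromeres for new CENP-A, and read 190.5, 209 and 220.2 with the control virus against 68.6 and 61.1, 55.6 and 45.3, and 28.8 and 24.8 with shMYCN, lower at each later hour (log2 difference -1.86 ± 0.17, limma adjusted p = 8.01e-05). REEP3, a protein that keeps the endoplasmic reticulum away from mitotic chromosomes, read 451, 438 and 491 (control) and 179 and 149, 97 and 60.3, and 94.3 and 97.2 (shMYCN) and had the largest fitted fall of the 12 (log2 difference -1.95 ± 0.17, limma adjusted p = 7.6e-05). COX5B, a subunit of cytochrome c oxidase, read 1952, 1693 and 1566 on the control arrays and 870.1 and 823, 486 and 506, and 370.1 and 396 on the shMYCN arrays (log2 difference -1.64 ± 0.12, limma adjusted p = 5.12e-05). RAP1A, a RAS-related GTPase of cell adhesion, read 1304, 1104 and 1304 with the control virus against 591 and 543, 307 and 273, and 239 and 226 with shMYCN (log2 difference -1.82 ± 0.16, limma adjusted p = 8.01e-05). For these genes the shMYCN arrays were already apart at 24 hours and the groups did not overlap at any hour. The other genes of the group were EPDR1 (-1.75 ± 0.14), an ependymin-related secreted protein, MTLN (-1.23 ± 0.10), a micropeptide of mitochondria, THOC7 (-1.58 ± 0.15), a subunit of the THO complex of mRNA export, RNF11 (-1.29 ± 0.10), a RING finger protein, SMCO4 (-1.71 ± 0.17), a small membrane protein, MTAP (-1.37 ± 0.12), which recycles methylthioadenosine from polyamine synthesis, and YWHAH (-1.50 ± 0.13), the eta form of 14-3-3. Their limma adjusted p lay between 4.33e-05 and 0.000142 together with the genes above. The 4 other probe sets of MTAP differed by only -0.07 to 0.25, and the other probe set of YWHAH by -0.16. The median difference of the 12 was -1.19, -1.66 and -1.97 at 24, 48 and 72 hours, and the gene next in order had a smallest distance of 0.98. MTAP (limma adjusted p 0.08) missed the 0.05 threshold with the mean of a gene's probe sets.

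The 12 genes that stood furthest above the control on every array lay nearer to it than those below, with a smallest distance of 0.58 to 0.94. DICER1, the nuclease that cuts microRNA precursors, read 454, 494 and 463 (control) and 785 and 888, 1148 and 806, and 1062 and 989 (shMYCN), so that all 6 shMYCN arrays exceeded all control arrays from the first hour measured (log2 difference 0.97 ± 0.11, limma adjusted p = 0.000248). ETV5, an ETS factor induced by FGF and MAP kinase signalling, read 83.9, 109 and 151 on the control arrays and 152 and 151, 196 and 228, and 276 and 281 on the shMYCN arrays (log2 difference 0.81 ± 0.09, limma adjusted p = 0.000191). Its control signal was higher at later hours as well, and at each hour both shMYCN arrays lay above it. ARHGEF3, a guanine nucleotide exchange factor, read 52.7, 55 and 57.5 with the control virus against 100.4 and 94.2, 177 and 130.5, and 201 and 199 with shMYCN (log2 difference 1.17 ± 0.14, limma adjusted p = 0.000427). TPPP3, a tubulin-binding protein that promotes polymerisation, read 2.2, 2.6 and 9.4 (control) and 11.7 and 15.5, 28.5 and 41.4, and 56.3 and 77.4 (shMYCN). PLPP7, a phospholipid phosphatase-like protein, read 5.2, 11.3 and 25.4 on the control arrays and 35.3 and 24.8, 47.6 and 43.4, and 71 and 65.8 on the shMYCN arrays. The mean of log2(signal + 16) on the control arrays was under the filter on dim signals for both, at 4.36 for TPPP3 and 4.85 for PLPP7 against a limit of 4.95. They were tested through the shMYCN arrays alone, so their values are a description and no test is given. The others were KLHL28 (1.17 ± 0.14), a kelch protein, CRAT (0.80 ± 0.11), carnitine acetyltransferase, FYCO1 (0.79 ± 0.11), which links autophagosomes to kinesin, SHISA6 (1.21 ± 0.14), an auxiliary protein of AMPA receptors, ESRRG (0.93 ± 0.12), an orphan nuclear receptor, SEMA5B (0.90 ± 0.14), a semaphorin, and NHS (0.75 ± 0.13), a regulator of actin. The second probe set of SHISA6 went the other way, by -0.79, and that of ESRRG differed by 0.18. The limma adjusted p of the 10 genes other than TPPP3 and PLPP7 ranged from 0.000191 to 0.00228. SHISA6 (limma adjusted p 0.186) missed the 0.05 threshold with the mean of a gene's probe sets. NHS did not pass without the 48-hour arrays (0.0542).

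**Figure D2:**
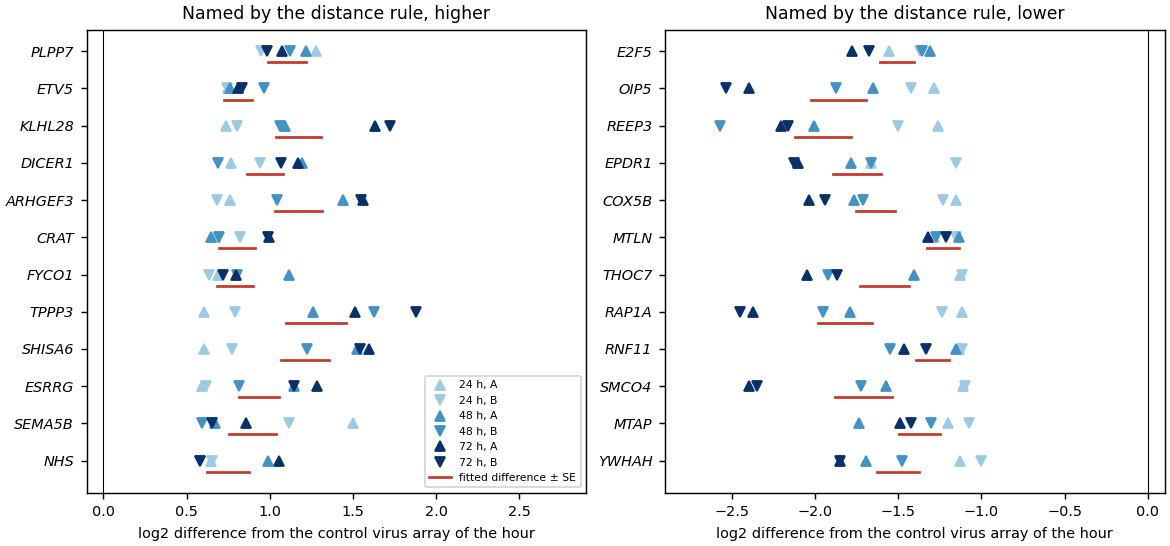
Log2 difference from the control array of the same hour (horizontal axis, log2 of signal + 16) for the 12 genes furthest above and the 12 furthest below the control (vertical axis), with 1 point for each shMYCN array coloured by hour and a bar for the fitted difference ± standard error, a description only for PLPP7 and TPPP3. No point of these 24 genes crosses 0, and the points of the lower genes start at 1.00 below it.

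The gap between the viruses widened with time. Both shMYCN arrays lay at least 1.5-fold above the control array for 69, 421 and 1106 genes at 24, 48 and 72 hours (0.582, 3.55 and 9.32 percent), and at least 1.5-fold below it for 95, 358 and 892 genes (0.801, 3.02 and 7.52 percent). Among the 3007 called genes the median size of the difference was 0.22, 0.49 and 0.68 at the 3 hours, and 2909 kept the same sign throughout. The size was greatest at 72 hours for 2299 of them, at 48 hours for 587 and at 24 hours for 121. The limma F test of virus by hour, in which only the duplicates give the spread, called 348 genes (2.93 percent), and 335 of these differed more at 72 than at 24 hours. The difference at 72 hours was below 0 for 198 of the 348 and above 0 for 150, and 104 had opposite signs at 24 and 72 hours. The F test cannot be made without a control array, and without 1 shMYCN array it called between 33 and 2138 genes.

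STMN2 (SCG10), a microtubule-destabilising protein of growth cones, gave the smallest interaction p of all genes. Its signals at 24, 48 and 72 hours were 81, 67.4 and 70.3 with the control virus against 119 and 122.7, 319 and 344, and 1106 and 932 with shMYCN, higher at each later hour on the shMYCN arrays and level on the control arrays (differences 0.50, 2.06 and 3.58, interaction limma adjusted p = 0.000213). SERPINF1, the secreted factor PEDF, was near the control array at 24 hours and above it later, with 537, 474 and 369 (control) and 489 and 547, 808 and 857, and 1386 and 1324 (shMYCN) (differences -0.05, 0.79 and 1.83, interaction limma adjusted p = 0.00131). Its control signal was lower at later hours. STC1, a secreted glycoprotein that responds to hypoxia, was higher at later hours on the control arrays and lower on the shMYCN arrays, at 385, 638 and 902 on the control arrays and 268 and 266, 178 and 172, and 144 and 134 on the shMYCN arrays (differences -0.50, -1.77 and -2.57, interaction limma adjusted p = 0.000995). GABARAP, a ubiquitin-like protein of autophagosomes, separated most between 24 and 48 hours, with 3155, 2989.7 and 2693 with the control virus against 1962 and 1770.5, 527 and 583, and 404 and 421 with shMYCN (differences -0.75, -2.40 and -2.66, interaction limma adjusted p = 0.000995). RRM2, the small subunit of ribonucleotide reductase, read 2554, 2658 and 2514 (control) and 2210.0 and 2163, 1489 and 1385, and 577 and 566 (shMYCN) (differences -0.22, -0.88 and -2.11, interaction limma adjusted p = 0.000995). The groups did not overlap for STMN2, STC1, GABARAP and RRM2. The difference fitted over the 3 hours was called for these 5 genes, and the adjusted p that follow are those of that difference. SERPINF1 (limma adjusted p 0.0893) missed the 0.05 threshold without the 48-hour control array. SERPINF1 (0.135) did not pass without the 72-hour control array. None of STMN2, SERPINF1, STC1, GABARAP and RRM2 passed without the 48-hour arrays (0.0546 to 0.143). SERPINF1 did not pass without the 72-hour arrays (0.188).

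Gene classes were described through 81 lists that held 2977 of the genes tested, with 365 of these called higher and 372 lower, against 1781 and 1226 over all genes. Medians were below 0 for 50 lists and above 0 for 31, and 9 medians changed sign with quantile scaling and 6 with median scaling. Lists of DNA replication, nucleotide synthesis, ribosome production and sugar breakdown lay on the lower side, and lists of axon guidance, neural adhesion, the growth cone, neuronal RNA-binding proteins and cilia on the higher side. The lists are described by these counts and medians, with no test of a list as a whole, and they share some genes. Their members were chosen with earlier results of these data known, so the counts are a description only. Their shares are read against the 15 percent of all genes called higher and the 10.3 percent called lower, and a list near those shares is not set apart by its count. Counts include genes that passed the filter on dim signals only through the shMYCN arrays: 3 of the rises in the neuronal cytoskeleton list, 2 each among zinc finger and matrix genes, and 1 each in the neural adhesion, guidance, voltage-gated channel and TGF-beta lists.

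**Figure D3:**
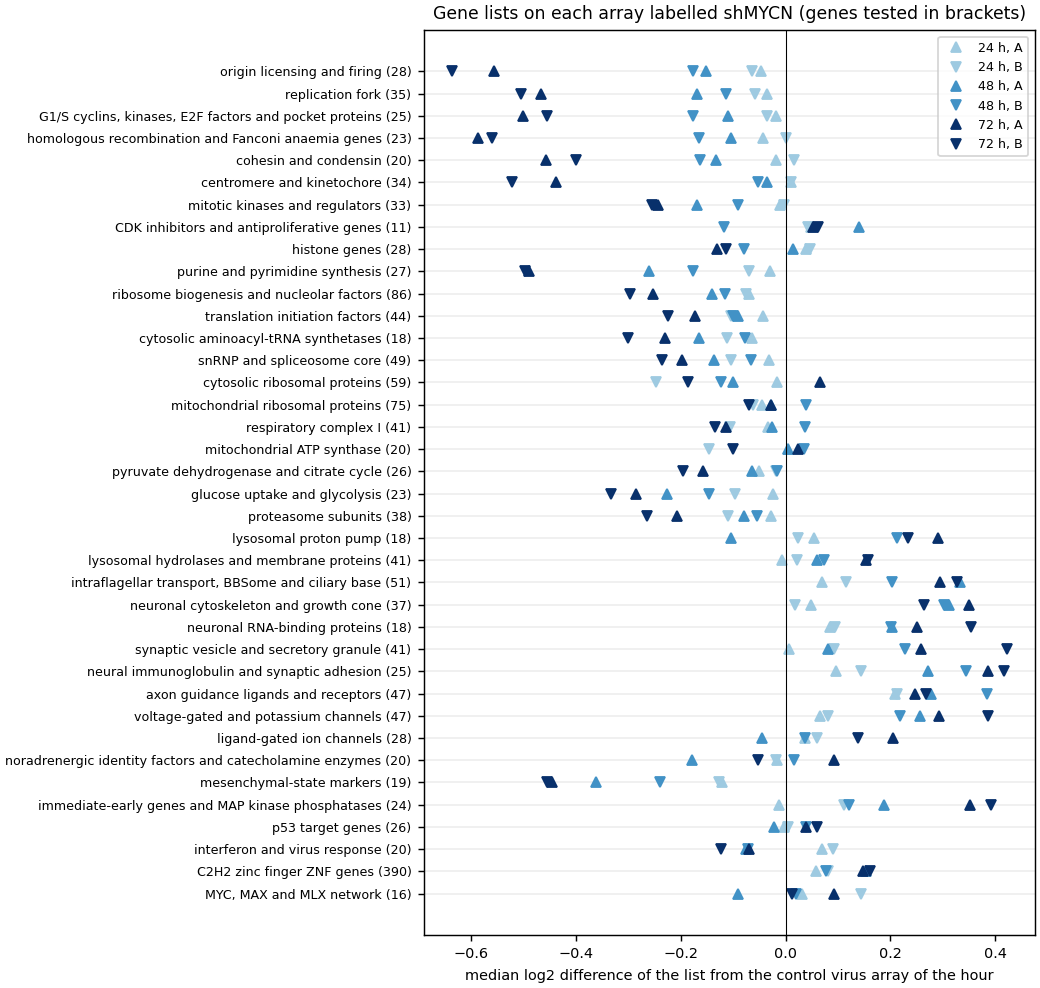
Median log2 difference from the control array of the same hour (horizontal axis, log2 of signal + 16) for 38 gene lists (vertical axis, genes tested in brackets), with 1 triangle for each of the 6 shMYCN arrays, pointing up for A and down for B and darker at later hours. The licensing and recombination lists are furthest to the left at 72 hours, the neural adhesion and synaptic vesicle lists are among those furthest to the right, and most triangles of 24 hours lie close to 0.

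**Figure D4:**
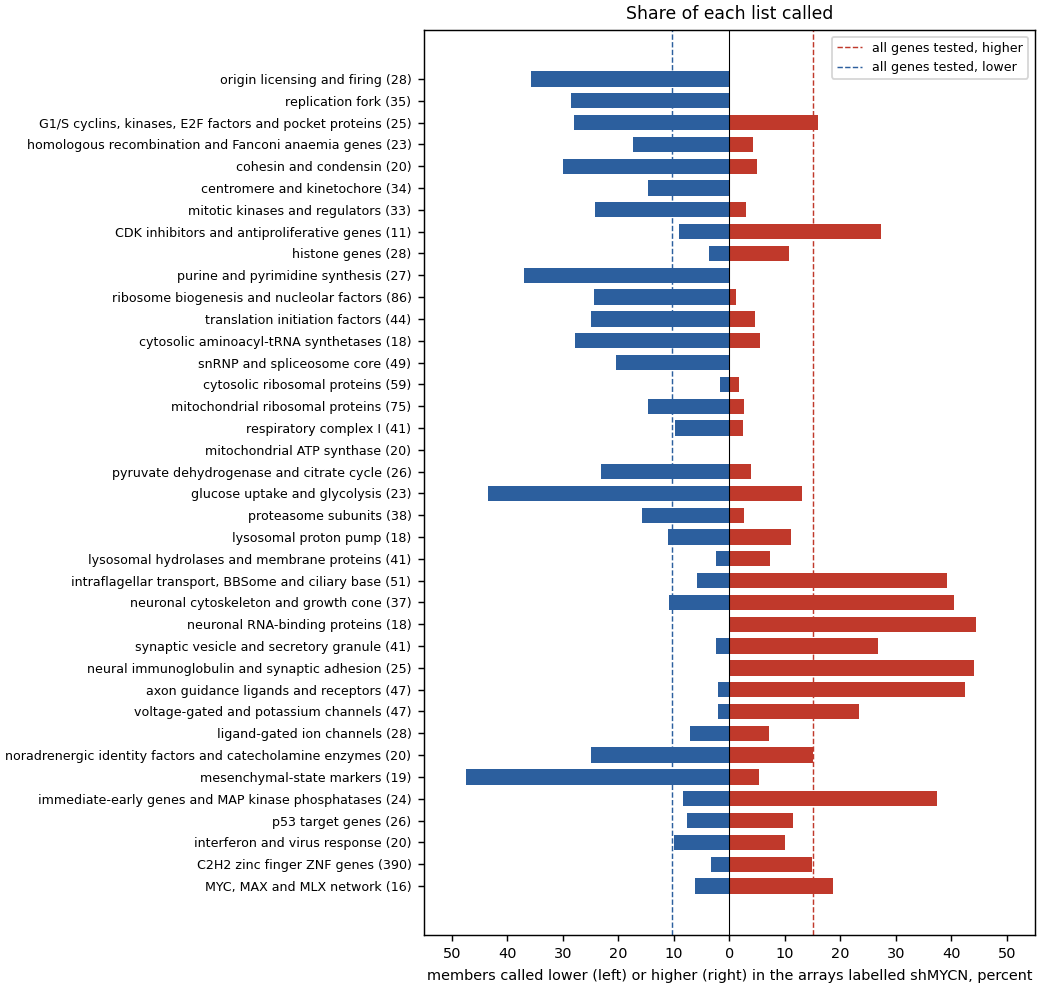
Percent of the tested members of 38 gene lists called lower (bars to the left) and higher (bars to the right) in the arrays labelled shMYCN, with dashed lines at the share over all genes (10.3 percent lower, 15 percent higher). The licensing list reaches 35.7 percent lower with no member higher, and the neural adhesion list 44.0 percent higher with no member lower.

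The DNA replication genes that passed were all lower in the arrays labelled shMYCN, with no tested member called higher by limma and 0 higher in either list at an unadjusted p under 0.05. Of the 28 tested genes that license and fire replication origins 10 fell (35.7 percent, median -0.26), and of 35 genes of the replication fork 10 fell (28.6 percent, median -0.23). MCM3, a subunit of the MCM2-7 helicase loaded at origins, read 1354, 1426 and 1451 on the control arrays and 905 and 933, 615 and 693, and 411 and 421 on the shMYCN arrays (log2 difference -1.14 ± 0.16, limma adjusted p = 0.000865). The groups were apart at every hour, and the gap grew from 24 to 72 hours (interaction limma adjusted p = 0.00949). Its promoter window from RefSeq (GRCh38.p14, chr6:52284693-52284992, minus strand, from 250 bases before to 50 after the start) is shown because MCM3 had the smallest p of the licensing genes with a window. Capitals mark the letters TTTCGCGC, TTTGGCGC or TTTCCCGC, known from E2F sites, and CCAAT, each on either strand.
MCM3: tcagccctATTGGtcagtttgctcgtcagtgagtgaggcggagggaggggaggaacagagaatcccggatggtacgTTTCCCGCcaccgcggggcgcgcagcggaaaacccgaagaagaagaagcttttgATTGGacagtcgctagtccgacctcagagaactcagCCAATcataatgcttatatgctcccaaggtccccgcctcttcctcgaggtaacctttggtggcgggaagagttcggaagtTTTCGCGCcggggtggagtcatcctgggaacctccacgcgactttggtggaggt
The window held TTTCCCGC and TTTCGCGC once each and CCAAT 3 times, including its reverse complement ATTGG; E2F letters stood in 4.62 percent of all 9693 windows and in 12 of 24 windows of the licensing list. MCM5, another helicase subunit, read 1124, 1159 and 1026 with the control virus against 906 and 958, 602 and 726, and 274 and 297 with shMYCN (log2 difference -0.95 ± 0.20, limma adjusted p = 0.00619). ORC1, the largest subunit of the origin recognition complex, read 302, 296 and 280.1 (control) and 220.4 and 239, 164 and 188, and 83.5 and 95.6 (shMYCN) (log2 difference -0.86 ± 0.16, limma adjusted p = 0.00373). ORC3 of the same complex fell by less (log2 difference -0.65 ± 0.15, limma adjusted p = 0.00808). All shMYCN arrays of these 3 genes lay below the lowest control array. At the fork, CLSPN (-0.81 ± 0.17), which passes the replication checkpoint signal to CHEK1, and the polymerase subunits POLD2 (-0.77 ± 0.18) and POLE2 (-0.68 ± 0.17) fell (limma adjusted p 0.00568, 0.0102 and 0.012). Most of this was late: medians of the licensing list were close to 0 on both arrays of 24 hours, and 8 licensing genes and 5 fork genes passed the virus by hour test. When the 48-hour control array was left out and without that of 72 hours, 4 and 4 licensing genes and 0 and 1 fork genes were lower. CLSPN, POLD2 and POLE2 (limma adjusted p 0.0558 to 0.0746) missed the 0.05 threshold without the 48-hour control array. POLD2 and POLE2 (0.07 to 0.0871) did not pass without the 72-hour control array. CLSPN (0.167) missed it with the mean of a gene's probe sets. None of MCM3, MCM5, ORC1, ORC3, CLSPN, POLD2 and POLE2 passed without the 48-hour arrays (0.0534 to 0.0981). Only MCM3, MCM5 and ORC1 passed without the 72-hour arrays (others 0.0736 to 0.114).

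Regulators of entry into S phase moved in both directions. Of 25 tested cyclins, kinases, E2F factors and pocket proteins 7 fell and 4 rose (median -0.22). TFDP1, the common partner of the E2F factors, read 1209, 1166 and 1243 on the control arrays and 784 and 753, 422 and 493, and 307 and 299 on the shMYCN arrays (log2 difference -1.32 ± 0.17, limma adjusted p = 0.000641), lower on every shMYCN array than on any control array. E2F2, an activating E2F, fell (log2 difference -0.79 ± 0.13, limma adjusted p = 0.00232), and E2F5 has been described above. CDK6, the kinase that pairs with D-type cyclins, was lower at later hours on the control arrays and not on the shMYCN arrays, with 1539.8, 1245 and 963 with the control virus against 1815 and 1792, 1803 and 1872, and 2141 and 1890.0 with shMYCN (log2 difference 0.61 ± 0.12, limma adjusted p = 0.00427). CDKN1C (p57), an inhibitor of cyclin-dependent kinases, rose most among the 11 antiproliferative genes tested and read 137, 139.9 and 155 (control) and 203 and 216, 462 and 446, and 746 and 756 (shMYCN) (log2 difference 1.44 ± 0.21, limma adjusted p = 0.000989). All shMYCN arrays of both genes exceeded the highest control array. CCNG2, an atypical cyclin of resting cells (log2 difference 0.69 ± 0.11, limma adjusted p = 0.00143), and BTG1, an antiproliferative cofactor (log2 difference 0.42 ± 0.09, limma adjusted p = 0.00624), rose as well, while CDKN1A (p21) fell (log2 difference -0.39 ± 0.10, limma adjusted p = 0.0128). The rest of that list did not pass: CDKN1B (-0.10 ± 0.09), CDKN2A (-0.16 ± 0.13), CDKN2D (0.03 ± 0.11), CDKN3 (0.01 ± 0.08), CCNG1 (0.24 ± 0.09), TOB1 (0.01 ± 0.13) and TOB2 (-0.17 ± 0.12), with limma adjusted p of 0.0587 to 0.953. Higher and lower counts of the S phase list were 1 and 4 without the 48-hour control array and 2 and 4 without the 72-hour one, and those of the antiproliferative list 2 and 0 in both cases. BTG1 and CDKN1A (limma adjusted p 0.0536 to 0.119) missed the 0.05 threshold without the 48-hour control array. BTG1 and CDKN1A (0.0524 to 0.0538) did not pass without the 72-hour control array. Only TFDP1 and E2F5 passed without the 48-hour arrays (others 0.0577 to 0.113). BTG1 and CDKN1A did not pass without the 72-hour arrays (0.0858 to 0.0954).

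Genes of mitosis and cell division moved in both directions, and those of the mitotic and kinetochore lists that passed were lower apart from AURKA. Of 33 mitotic kinases and regulators 8 were lower (24.2 percent) and 1 higher (median -0.13), and of 34 centromere and kinetochore genes 5 were lower (14.7 percent, median -0.18). ANLN, the actin-binding protein of the cleavage furrow, read 461, 425 and 465 on the control arrays and 314 and 367, 258 and 224, and 186 and 196 on the shMYCN arrays (log2 difference -0.81 ± 0.13, limma adjusted p = 0.00165), with no overlap between the viruses. Its RefSeq promoter window (GRCh38.p14, chr7:36389612-36389911, plus strand) is printed as that of the mitotic gene with the smallest p and a window, and capitals mark the E-box CACGTG and the letters TTTGAA of cell cycle homology regions.
ANLN: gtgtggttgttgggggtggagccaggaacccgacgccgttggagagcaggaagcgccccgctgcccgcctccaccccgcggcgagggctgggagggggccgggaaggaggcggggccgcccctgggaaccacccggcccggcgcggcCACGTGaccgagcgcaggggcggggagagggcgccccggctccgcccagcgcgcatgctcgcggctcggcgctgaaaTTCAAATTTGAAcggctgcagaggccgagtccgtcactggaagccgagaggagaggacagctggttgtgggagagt
CACGTG occurred at 103 to 98 bases before the start and TTTGAA on each strand between 26 and 15 bases before it; TTTGAA stood in 9.46 percent of all windows, in 14 of 24 windows of the mitotic list and in 13 of 29 of the kinetochore list. PLK1, the polo kinase of mitotic entry, read 569, 651 and 595 with the control virus against 498 and 471, 351 and 469, and 335 and 368 with shMYCN (log2 difference -0.54 ± 0.11, limma adjusted p = 0.0063), and FOXM1, a factor that drives G2 and M phase genes, fell by 0.53 ± 0.12 (limma adjusted p = 0.00861). AURKA, the kinase of spindle poles that is also known to bind and protect MYCN protein, went the other way and read 678, 681 and 692 (control) and 828 and 759, 905 and 862, and 907 and 860.4 (shMYCN) (log2 difference 0.31 ± 0.07, limma adjusted p = 0.00902). At the centromere, HJURP, the chaperone of CENP-A, fell with its loading partner OIP5 (log2 difference -0.79 ± 0.14, limma adjusted p = 0.00283), and ZWINT of the outer kinetochore fell (log2 difference -0.35 ± 0.10, limma adjusted p = 0.0301). Of 20 cohesin and condensin genes 6 fell and 1 rose (median -0.21), among them the ring subunit RAD21 (log2 difference -0.29 ± 0.07, limma adjusted p = 0.0119) downwards. Of 34 kinesins tested 4 fell and 7 rose: those with the smallest p were the mitotic motors KIF23 (-0.96 ± 0.11) and KIF4A (-0.55 ± 0.12) downwards and KIF5A (0.85 ± 0.11), a motor of axonal transport, and KIF3B (0.92 ± 0.13), a motor of cilia and axons, upwards. Other probe sets of KIF23 and KIF5A were near 0 (-0.03 and 0.01 to 0.05). Without the control array of 48 hours the lower counts were 1 for the mitotic list, 3 for the kinetochore list, 0 for cohesin and condensin and 1 for kinesins, and without that of 72 hours 2, 2, 0 and 2. AURKA, PLK1, FOXM1, ZWINT, RAD21 and KIF4A (limma adjusted p 0.0641 to 0.0947) missed the 0.05 threshold without the 48-hour control array. AURKA, FOXM1, ZWINT, RAD21 and KIF4A (0.0512 to 0.303) did not pass without the 72-hour control array. ZWINT (0.0661) missed it with quantile scaling. ZWINT (0.0623 to 0.0649) did not pass without single shMYCN arrays (48 A, 72 A and 72 B in turn). KIF5A (0.0553) missed it with the mean of a gene's probe sets. Only OIP5, KIF23, KIF5A and KIF3B passed without the 48-hour arrays (others 0.0561 to 0.137). AURKA, PLK1, FOXM1, ZWINT, RAD21 and KIF4A did not pass without the 72-hour arrays (0.0792 to 0.33).

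Repair genes were divided. Among homologous recombination and Fanconi anaemia genes 4 of 23 fell and 1 rose (median -0.23), with RAD51AP1 (-1.15 ± 0.16) and NBN (-0.39 ± 0.10) of the MRN break sensor lower and FANCF (0.51 ± 0.11) of the Fanconi core complex higher. In mismatch repair, excision repair and end joining 4 of 30 fell and 3 rose (median -0.03). MSH6, which recognises mismatches, fell (log2 difference -0.74 ± 0.16, limma adjusted p = 0.00704) and DNA ligase 4, LIG4, rose (log2 difference 0.49 ± 0.12, limma adjusted p = 0.0116). Of 28 histone genes 3 rose and 1 fell: H2AC6 (1.00 ± 0.19), H2AC25 (0.94 ± 0.23) and H2BC12 (0.74 ± 0.20) were higher, and H2AX (-0.46 ± 0.12), the variant that is phosphorylated at breaks, was lower. Histone genes are near-identical copies, and how probe sets split between copies is uncertain. The limma adjusted p of these genes lay between 0.000939 and 0.0191. With the 48-hour control array left out the higher and lower counts were 1 and 1 for recombination, 0 and 1 for excision and end joining and 1 and 0 for histones, and with the 72-hour one left out 0 and 1, 0 and 1 and 1 and 0. NBN, LIG4, H2AC25, H2BC12 and H2AX (limma adjusted p 0.0597 to 0.0949) missed the 0.05 threshold without the 48-hour control array. NBN, FANCF, LIG4, H2AC25, H2BC12 and H2AX (0.0558 to 0.165) did not pass without the 72-hour control array. NBN and H2AX (0.0794 to 0.0844) missed it with the mean of a gene's probe sets. Only RAD51AP1 passed without the 48-hour arrays (others 0.0666 to 0.142). Only RAD51AP1, MSH6 and H2AC6 passed without the 72-hour arrays (others 0.105 to 0.222).

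The enzymes of nucleotide synthesis that passed were all lower. Of 27 tested purine and pyrimidine genes 10 fell (37 percent) and none was called higher by limma (median -0.22), with 0 higher at an unadjusted p under 0.05. PRPS2 makes the phosphoribosyl pyrophosphate that both pathways use and is a known MYC target. It read 426, 422 and 471 on the control arrays and 246 and 290.4, 312 and 219, and 168 and 161 on the shMYCN arrays (log2 difference -0.91 ± 0.15, limma adjusted p = 0.00224). ADSL, which acts in the making of both AMP and its precursor IMP, read 1281, 1215 and 1233 with the control virus against 1122 and 1013, 807 and 749.9, and 471 and 440.3 with shMYCN (log2 difference -0.77 ± 0.15, limma adjusted p = 0.00518). GMPS, which makes GMP, read 793, 818 and 786 (control) and 675 and 673, 541 and 545, and 424 and 417 (shMYCN) (log2 difference -0.56 ± 0.10, limma adjusted p = 0.00315), and IMPDH2, the enzyme before it, fell too (log2 difference -0.73 ± 0.15, limma adjusted p = 0.00644). For PRPS2, ADSL and GMPS no shMYCN array reached the lowest control array. Of 22 serine, glycine and one-carbon genes 5 fell and 1 rose: PHGDH, the entry enzyme of serine synthesis, fell (log2 difference -0.76 ± 0.15, limma adjusted p = 0.00486), and GLDC, which cleaves glycine in mitochondria, rose (log2 difference 0.53 ± 0.08, limma adjusted p = 0.00126). Among 13 polyamine genes 3 fell, led by AZIN1, an activator of ornithine decarboxylase (log2 difference -0.89 ± 0.09, limma adjusted p = 0.00012), and the median of the list was -0.01, or 0.03 with quantile scaling. With the control array of 48 hours left out 5, 1 and 2 genes of these 3 lists were lower, and without that of 72 hours 5, 1 and 1. Only PRPS2, GLDC and AZIN1 passed without the 48-hour arrays (others limma adjusted p 0.0678 to 0.08). PHGDH did not pass without the 72-hour arrays (0.0539).

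The factors that build ribosomes and passed were lower apart from 1, while few proteins of the ribosome itself were called. Of 86 ribosome biogenesis and nucleolar genes 21 fell (24.4 percent) and 1 rose (median -0.18), and 38 had all 6 shMYCN arrays below the control array of their hour. LYAR, a nucleolar zinc finger protein of rRNA processing, read 264, 266 and 268 on the control arrays and 153 and 160.3, 129 and 87.1, and 65 and 60.4 on the shMYCN arrays (log2 difference -1.25 ± 0.17, limma adjusted p = 0.000885), with both groups apart from 24 hours on. The RefSeq window of its promoter (GRCh38.p14, chr4:4290105-4290404, minus strand) is shown as that of the ribosome biogenesis gene with the smallest p and a window; none of the 6 kinds of letters searched stood in it, so it carries no capitals.
LYAR: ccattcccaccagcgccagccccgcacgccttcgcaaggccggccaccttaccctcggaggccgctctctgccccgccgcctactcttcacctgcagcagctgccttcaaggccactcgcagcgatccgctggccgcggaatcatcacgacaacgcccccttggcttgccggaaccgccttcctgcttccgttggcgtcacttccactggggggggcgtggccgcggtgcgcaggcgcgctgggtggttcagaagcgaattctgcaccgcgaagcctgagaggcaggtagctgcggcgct
In the list as a whole CACGTG stood in 30 of 74 windows (40.5 percent), against 10.7 percent of all windows. Other lists differed in this share. Of lists with medians below 0, initiation factors had 27.0 percent, RNA polymerase III 30 percent and nucleotide synthesis 20.8 percent. For cohesin and condensin (median -0.21) it was 0 of 16. Of lists with medians above 0, guidance had 4.88 percent, neural adhesion 4.55 percent and cilia 4.44 percent. It was 4 of 12 windows (33.3 percent) for the lysosomal proton pump (median 0.12) and 32.3 percent for lysosomal genes (median 0.07). A link between share and direction was not tested. GAR1, a protein of the H/ACA particles that guide pseudouridine into RNA, read 670.2, 595 and 698 with the control virus against 478 and 481, 327 and 369, and 220.3 and 277 with shMYCN (log2 difference -0.89 ± 0.15, limma adjusted p = 0.00217). PNO1, which assembles the small subunit, read 567, 583 and 574 (control) and 474 and 449, 447 and 422, and 318 and 335 (shMYCN) (log2 difference -0.49 ± 0.09, limma adjusted p = 0.00384). Neither gene overlapped between the groups. Of 59 cytosolic ribosomal proteins 1 fell and 1 rose, with a median of -0.10 that turned to 0.03 with quantile scaling. Among 44 initiation factors 11 fell and 2 rose (median -0.12): EIF2S2, the beta subunit of eIF2, read 2401, 2415 and 2231 on the control arrays and 1586 and 1522, 954 and 928, and 675 and 609.6 on the shMYCN arrays (log2 difference -1.25 ± 0.15, limma adjusted p = 0.000427), and EIF4EBP2, an inhibitor of cap binding, rose (log2 difference 0.50 ± 0.08, limma adjusted p = 0.00228). Of 18 cytosolic tRNA synthetases 5 fell and 1 rose, with IARS1 for isoleucine lower at 2308, 2437 and 2456 with the control virus against 2079.6 and 1912, 1429.8 and 1251, and 985 and 936 with shMYCN (log2 difference -0.80 ± 0.15, limma adjusted p = 0.00372). Of 75 mitochondrial ribosomal proteins 11 fell (14.7 percent) and 2 rose. When the 48-hour control array was left out, 4, 3, 2 and 4 genes of the biogenesis, initiation, synthetase and mitochondrial ribosome lists were lower, and without that of 72 hours 3, 3, 2 and 4. EIF4EBP2 (limma adjusted p 0.0898) missed the 0.05 threshold with the mean of a gene's probe sets. GAR1, PNO1 and IARS1 did not pass without the 48-hour arrays (0.0566 to 0.079). PNO1 did not pass without the 72-hour arrays (0.0582).

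Lists of transcription, RNA processing and nuclear transport had medians slightly below 0. MAF1, the repressor of RNA polymerase III, read 378, 357 and 370.5 (control) and 227 and 251, 75.5 and 118, and 58.3 and 45.2 (shMYCN) (log2 difference -1.63 ± 0.25, limma adjusted p = 0.00168), and GTF3C2 of its promoter factor TFIIIC fell (log2 difference -0.61 ± 0.11, limma adjusted p = 0.00264), among 3 lower and 2 higher of 25 genes of that polymerase. Of 40 RNA polymerase II and Mediator subunits 4 fell and 1 rose, with POLR2C (-0.90 ± 0.11) and the cyclin of the Mediator kinase, CCNC (-0.70 ± 0.09), lower. Spliceosome core genes gave 10 lower and 0 higher of 49 by limma (median -0.15, 2 higher at an unadjusted p under 0.05), with SF3A3 (-0.71 ± 0.13) of the U2 particle lowest by p, and the helicase DHX15, which takes spliceosomes apart, fell (log2 difference -0.79 ± 0.09, limma adjusted p = 0.000311). Of 61 RNA modification genes 11 fell and 4 rose. XPO5, the exporter of pre-microRNAs to the cytoplasm, read 791, 763 and 772 on the control arrays and 521 and 529, 272 and 383, and 291 and 252 on the shMYCN arrays (log2 difference -1.08 ± 0.15, limma adjusted p = 0.00074), below every control array, whereas DICER1, the next enzyme of that pathway, was among the genes furthest above. RANBP1 (log2 difference -0.69 ± 0.10, limma adjusted p = 0.000826) and the importin IPO5 (log2 difference -0.44 ± 0.07, limma adjusted p = 0.00228) also fell, among 6 lower and 1 higher of 34 transport receptors. NUP98 was called higher at 0.51, but its other probe sets differed by -0.54 and -0.52 and the mean of its probe sets gave -0.18. Higher and lower counts without the control array of 48 hours were 0 and 2 (polymerase III), 0 and 4 (polymerase II and Mediator), 1 and 2 (spliceosome core), 0 and 2 (modification) and 1 and 4 (transport), and without that of 72 hours 0 and 2, 0 and 4, 0 and 2, 0 and 2 and 1 and 4. NUP98 (limma adjusted p 0.21) missed the 0.05 threshold with the mean of a gene's probe sets. Only POLR2C, CCNC, DHX15, XPO5 and DICER1 passed without the 48-hour arrays (others 0.0519 to 0.0738).

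The proteasome genes that passed were lower apart from 1, and the chaperones were mixed. Of 38 proteasome genes 6 fell and 1 rose (median -0.14), with the ATPase subunit PSMC3 (-0.64 ± 0.14) lower and PSME1 (0.56 ± 0.10) of the 11S activator higher. Chaperones gave 6 lower and 10 higher of 59. DNAJA1, a cochaperone of HSP70, read 3266, 3035 and 3046 with the control virus against 2419.6 and 2274, 2353 and 2222, and 2316 and 2056 with shMYCN (log2 difference -0.45 ± 0.07, limma adjusted p = 0.00119), nearly at its final level at 24 hours and without overlap. The chaperonin subunit CCT7 fell (log2 difference -0.63 ± 0.11, limma adjusted p = 0.00273) and the membrane cochaperone DNAJB14 rose (log2 difference 0.54 ± 0.11, limma adjusted p = 0.00682). Of 28 ubiquitin-conjugating enzymes 5 fell and 4 rose. Counts of higher and lower genes in these 3 lists were 1 and 1, 0 and 3, and 3 and 1 without the 48-hour control array and 1 and 1, 2 and 2, and 2 and 2 without the 72-hour one. DNAJB14 (limma adjusted p 0.0624) missed the 0.05 threshold without the 48-hour control array. DNAJB14 (0.057) did not pass without the 72-hour control array. Only DNAJA1 passed without the 48-hour arrays (others 0.0653 to 0.0899). PSMC3 and DNAJB14 did not pass without the 72-hour arrays (0.0737 to 0.104).

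Of the genes of sugar breakdown that passed, more were lower than higher, and the neuronal and muscle enolases were among the exceptions. Of 23 genes of glucose uptake and glycolysis 10 fell (43.5 percent) and 3 rose (median -0.17). PFKM, a form of phosphofructokinase, read 874, 815 and 796 (control) and 477 and 467, 294 and 299.8, and 206 and 240.2 (shMYCN) (log2 difference -1.35 ± 0.13, limma adjusted p = 0.000119). PFKFB3, which makes the activator of phosphofructokinase, read 288, 284 and 280.1 on the control arrays and 149 and 152, 163 and 148, and 151 and 130.5 on the shMYCN arrays (log2 difference -0.87 ± 0.09, limma adjusted p = 0.000142), at about the same level at every hour of the shMYCN arrays. ENO2, neuronal enolase, rose, at 232, 219 and 309 with the control virus against 271 and 334, 417 and 502, and 654 and 631 with shMYCN (log2 difference 0.79 ± 0.13, limma adjusted p = 0.002), and so did ENO3, the muscle form (log2 difference 0.76 ± 0.15, limma adjusted p = 0.00474). At 24 hours 1 shMYCN array of ENO2 lay below the 72-hour control array, and within each hour the groups were apart. In the citrate cycle 6 of 26 fell and 1 rose, with DLST of the oxoglutarate dehydrogenase complex lowest by p (log2 difference -1.08 ± 0.14, limma adjusted p = 0.000538) and IDH3B lower (log2 difference -0.65 ± 0.10, limma adjusted p = 0.00202). In cholesterol synthesis and uptake 3 of 22 fell and 2 rose: the early enzyme HMGCS1 read 737, 672 and 682 (control) and 471 and 517, 314 and 263, and 263 and 271 (shMYCN) (log2 difference -1.02 ± 0.12, limma adjusted p = 0.000413), while INSIG1, the sterol-responsive anchor of SCAP, rose (log2 difference 0.40 ± 0.08, limma adjusted p = 0.0051). Fatty acid genes gave 7 higher and 1 lower of 31, among them CPT2, which carries acyl groups into mitochondrial oxidation (log2 difference 0.59 ± 0.12, limma adjusted p = 0.00446). SLC1A1, a neuronal glutamate transporter, rose (log2 difference 0.90 ± 0.15, limma adjusted p = 0.00256), and SLC7A2, a transporter of cationic amino acids, fell (log2 difference -0.63 ± 0.14, limma adjusted p = 0.00719), among 3 higher and 2 lower of 22 amino acid transporters. Without the control array of 48 hours the higher and lower counts were 3 and 2 for glycolysis, 0 and 3 for the citrate cycle, 0 and 1 for cholesterol and 1 and 0 for fatty acids, and without that of 72 hours 2 and 2, 0 and 3, 2 and 1 and 3 and 0. INSIG1 and CPT2 (limma adjusted p 0.0509 to 0.0581) missed the 0.05 threshold without the 48-hour control array. SLC7A2 (0.0639) did not pass without the 72-hour control array. INSIG1 (0.0694) missed it with the mean of a gene's probe sets. Only PFKM, PFKFB3, DLST, HMGCS1 and SLC7A2 passed without the 48-hour arrays (others 0.0545 to 0.0775). CPT2 and SLC7A2 did not pass without the 72-hour arrays (0.0702 to 0.0843).

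The respiratory chain showed single strong falls inside lists that otherwise moved little. Of 41 complex I genes 4 fell and 1 rose, and NDUFB2, an accessory subunit, read 2711, 2673 and 2384 on the control arrays and 1585 and 1554, 570.4 and 689, and 371 and 384 on the shMYCN arrays (log2 difference -1.82 ± 0.23, limma adjusted p = 0.00055), with no overlap. One of its 2 other probe sets differed by -2.01 and the other by 0.07. Of 44 genes of complexes II to IV 6 fell and 5 rose, with COX5B, described above, lowest and the assembly factor COX20 higher (log2 difference 0.70 ± 0.11, limma adjusted p = 0.002). None of the 20 ATP synthase genes was called, with a median of -0.03 (0.05 with quantile scaling) in the same limma fit; at an unadjusted p under 0.05 1 of them was higher and 0 lower. TIMM17A, a channel subunit of the inner membrane import machinery, read 2489, 2388 and 2354 with the control virus against 1694 and 1645, 760.1 and 669, and 453 and 386 with shMYCN (log2 difference -1.58 ± 0.24, limma adjusted p = 0.00128), and 3 of 27 import genes fell. TFB2M, which starts mitochondrial transcription with POLRMT, fell (log2 difference -0.97 ± 0.11, limma adjusted p = 0.000251), as did RARS2, the mitochondrial synthetase for arginine (log2 difference -1.25 ± 0.17, limma adjusted p = 0.000627). Without the control arrays of 48 or 72 hours in turn, 2 and 3 genes of complex I, 2 and 1 of complexes II to IV and 1 and 1 import genes were lower. TFB2M (limma adjusted p 0.0985) missed the 0.05 threshold with the mean of a gene's probe sets. Only COX5B and TFB2M passed without the 48-hour arrays (others 0.0531 to 0.0639).

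Vesicle, lysosome and autophagy lists held strong changes in both directions. In autophagy 5 of 35 rose and 5 fell (14.3 percent each, against 15 percent higher and 10.3 percent lower over all genes). GABARAP, described above, was lowest, and WIPI1, which binds the lipid of forming autophagosomes, rose (log2 difference 0.65 ± 0.11, limma adjusted p = 0.00235). Of 18 genes of the lysosomal proton pump 2 rose and 2 fell, and its subunit ATP6V1D read 434, 430.4 and 442 (control) and 310.3 and 347, 146 and 137, and 85.6 and 77.5 (shMYCN) (log2 difference -1.37 ± 0.23, limma adjusted p = 0.00244), while another of its probe sets differed by 0.06. LAMP2, an abundant lysosomal membrane protein, fell (log2 difference -0.84 ± 0.11, limma adjusted p = 0.000688), whereas the protease TPP1 rose (log2 difference 0.61 ± 0.10, limma adjusted p = 0.00224), among 3 higher and 1 lower of 41 lysosomal genes. Of 57 coat genes 8 fell and 5 rose, with SAR1A (-1.33 ± 0.15), the GTPase that starts COPII coats, and the adaptor subunits AP3S1 (-0.93 ± 0.15) and AP2M1 (-0.76 ± 0.13) lower. RAB GTPases gave 10 higher and 7 lower of 48 (median 0.14), among them RAB40B (0.65 ± 0.10) upwards and RAB2B (-0.95 ± 0.16) downwards. The limma adjusted p of these 5 genes ran from 0.000344 to 0.00226. Higher and lower counts without the control array of 48 hours were 1 and 1 in autophagy, 1 and 6 in coats and 2 and 2 in RAB genes, and without that of 72 hours 1 and 1, 2 and 6 and 2 and 3. Only WIPI1, LAMP2 and SAR1A passed without the 48-hour arrays (others limma adjusted p 0.0545 to 0.0736).

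Genes of the primary cilium, the antenna that non-dividing cells raise, were called higher more often than lower. Of 51 tested genes of intraflagellar transport, the BBSome and the ciliary base 20 rose (39.2 percent) and 3 fell (median 0.26). KIF3B, a motor of the transport towards the tip, read 186, 191 and 200 on the control arrays and 269 and 264, 391 and 364, and 541 and 528 on the shMYCN arrays (log2 difference 0.92 ± 0.13, limma adjusted p = 0.000794). IFT22, a small GTPase of the transport particle, read 275, 238 and 254 with the control virus against 339.7 and 300.1, 449 and 478, and 486 and 482 with shMYCN (log2 difference 0.67 ± 0.12, limma adjusted p = 0.00324). For both genes every shMYCN array exceeded every control array. IFT43 of the particle that returns from the tip rose (log2 difference 0.53 ± 0.10, limma adjusted p = 0.00439) and TCTN3 of the transition zone fell (log2 difference -0.64 ± 0.11, limma adjusted p = 0.00299). With the control array of 48 hours left out 5 genes of the list were higher and 2 lower, and without that of 72 hours 5 and 3. IFT43 (limma adjusted p 0.0784) missed the 0.05 threshold with the mean of a gene's probe sets. Only KIF3B passed without the 48-hour arrays (others 0.0545 to 0.0771). IFT43 did not pass without the 72-hour arrays (0.0739).

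Among genes of axons and growth cones, more were called higher than lower. Of 37 neuronal cytoskeleton genes 15 rose (40.5 percent) and 4 fell (median 0.21). DCX (doublecortin), a microtubule-binding protein of migrating young neurons, read 384, 452 and 615 (control) and 510.0 and 548, 1420.0 and 1205, and 2267 and 2209.5 (shMYCN) (log2 difference 1.26 ± 0.19, limma adjusted p = 0.0012). The control signal was higher at later hours too, so that the arrays of 24 hours labelled shMYCN overlapped with it, and from 48 hours on the groups were apart (interaction limma adjusted p = 0.00516). The RefSeq promoter window of DCX (GRCh38.p14, chrX:111412143-111412442, minus strand) is printed for a called gene of this list. The p of DCX was not the smallest of the list, as DPYSL2, which fell, had a smaller one. Capitals mark TATAAA and ATTGG, the reverse complement of CCAAT.
DCX: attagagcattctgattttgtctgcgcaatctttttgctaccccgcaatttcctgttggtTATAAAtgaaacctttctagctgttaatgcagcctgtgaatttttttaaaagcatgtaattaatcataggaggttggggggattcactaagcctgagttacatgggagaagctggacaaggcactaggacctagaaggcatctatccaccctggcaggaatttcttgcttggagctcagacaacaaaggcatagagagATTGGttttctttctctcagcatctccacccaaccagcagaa
TATAAA lay at 190 to 185 bases before the start, and these letters stood in 5.21 percent of all windows. STMN2 has been given above, and KIF5A (0.85 ± 0.11) rose with it. DPYSL2 (CRMP2), a partner of tubulin that is also active in growth cones, went the other way (log2 difference -1.02 ± 0.10, limma adjusted p = 0.000108). Of 18 neuronal RNA-binding proteins 8 rose (44.4 percent) and none was called lower by limma (median 0.23), with 0 lower at an unadjusted p under 0.05. CELF3, a splicing regulator of the nervous system, read 90.2, 63.6 and 75.7 on the control arrays and 122 and 118, 205 and 168, and 337 and 429.6 on the shMYCN arrays (log2 difference 1.27 ± 0.23, limma adjusted p = 0.00326). ELAVL3 (HuC), which binds AU-rich RNA in neurons, read 917, 894 and 934 with the control virus against 1118 and 1075, 1191 and 1303, and 1478 and 1627 with shMYCN (log2 difference 0.48 ± 0.09, limma adjusted p = 0.00326). Neither gene overlapped between the groups, and SRRM4, the activator of neuronal microexons, rose too (log2 difference 0.49 ± 0.11, limma adjusted p = 0.00704). Higher and lower counts were 7 and 2 for the cytoskeleton and 4 and 0 for RNA-binding proteins without the 48-hour control array, and 8 and 3 and 3 and 0 without the 72-hour one. SRRM4 (limma adjusted p 0.0583) missed the 0.05 threshold without the 72-hour control array. KIF5A (0.0553) did not pass with the mean of a gene's probe sets. Only KIF5A, DPYSL2 and SRRM4 passed without the 48-hour arrays (others 0.0639 to 0.0771). SRRM4 did not pass without the 72-hour arrays (0.109).

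Adhesion and guidance molecules of neurons were called higher more often than lower. Of 25 neural immunoglobulin and synaptic adhesion genes 11 rose (44 percent) and none was called lower by limma, or at an unadjusted p under 0.05 (median 0.30), and of 47 axon guidance genes 20 rose (42.6 percent) and 1 fell (median 0.28). CNTN1 (contactin), an axonal adhesion protein, read 174, 152 and 154 (control) and 222 and 201, 356 and 381, and 566 and 528 (shMYCN) (log2 difference 1.06 ± 0.19, limma adjusted p = 0.0032). ALCAM, which supports axon fasciculation, read 267, 296 and 249.8 on the control arrays and 326 and 332, 501 and 542, and 677 and 545 on the shMYCN arrays (log2 difference 0.77 ± 0.14, limma adjusted p = 0.00326). L1CAM, a neurite outgrowth molecule, read 290.0, 272 and 262 with the control virus against 359 and 329.9, 449.5 and 462, and 548 and 630.2 with shMYCN (log2 difference 0.69 ± 0.13, limma adjusted p = 0.00383). In all 3 genes the shMYCN arrays lay above the highest control array. Among receptors of guidance cues PLXNA1, a semaphorin receptor, read 616, 656 and 633 (control) and 879 and 892, 1071 and 1091, and 1047 and 1061 (shMYCN) (log2 difference 0.65 ± 0.07, limma adjusted p = 0.000222), although its other probe sets differed by only 0.03 to 0.04, and the netrin receptor UNC5B fell (log2 difference -0.53 ± 0.15, limma adjusted p = 0.0225). Among ligands SEMA5B, given above, and the repellent SLIT2 rose (log2 difference 0.57 ± 0.09, limma adjusted p = 0.00208). Cadherins and protocadherins were divided, 4 higher and 1 lower of 18 with a median of -0.01: PCDHB14 (0.73 ± 0.14) rose and CDH11 (-0.58 ± 0.11) fell (limma adjusted p 0.0044 and 0.00455). Clustered protocadherins share sequence, so the member measured is uncertain. The higher counts without the control array of 48 hours were 3 for adhesion and 7 for guidance, and without that of 72 hours 6 and 8. UNC5B (limma adjusted p 0.07) missed the 0.05 threshold without the 48-hour control array. UNC5B and SLIT2 (0.141 to 0.196) did not pass without the 72-hour control array. UNC5B (0.0512 to 0.0541) missed it without single shMYCN arrays (72 A and 72 B in turn). PLXNA1 (0.066) did not pass with the mean of a gene's probe sets. Only PLXNA1, SEMA5B and SLIT2 passed without the 48-hour arrays (others 0.0651 to 0.0885). UNC5B, PCDHB14 and CDH11 did not pass without the 72-hour arrays (0.0601 to 0.252).

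Ion channel and secretory genes were more often called higher than lower. Of 47 voltage-gated and potassium channel genes 11 rose (23.4 percent) and 1 fell (median 0.18). CACNA2D1, an auxiliary subunit of calcium channels, read 477, 402 and 443 on the control arrays and 564 and 616, 750.4 and 727, and 1073 and 948 on the shMYCN arrays (log2 difference 0.77 ± 0.13, limma adjusted p = 0.00217), without overlap, while another of its probe sets differed by -0.23. Ligand-gated channels gave 2 higher and 2 lower of 28: the AMPA receptor subunit GRIA2 (0.44 ± 0.14) rose, and the GABA receptor subunit GABRA5 (-0.65 ± 0.12) and the nicotinic subunit CHRNB4 (-0.42 ± 0.11) fell (limma adjusted p 0.036, 0.00324 and 0.0161). In the list of synaptic vesicles and secretory granules 11 of 41 rose (26.8 percent) and 1 fell (median 0.18). SYT4, a synaptotagmin of dense-core vesicles, rose (log2 difference 0.97 ± 0.16, limma adjusted p = 0.00228), and CPE, the carboxypeptidase that trims neuropeptides, fell at every hour (log2 difference -1.22 ± 0.11, limma adjusted p = 7.7e-05). When the 48-hour control array was left out 1 channel gene and 2 vesicle genes were higher, and without that of 72 hours 1 and 2. GRIA2 and CHRNB4 (limma adjusted p 0.127 to 0.133) missed the 0.05 threshold without the 48-hour control array. GRIA2 and CHRNB4 (0.0606 to 0.29) did not pass without the 72-hour control array. GRIA2 (0.0716 to 0.0839) missed it without single shMYCN arrays (48 A, 72 A and 72 B in turn). CACNA2D1 (0.149) did not pass with the mean of a gene's probe sets. Only CPE passed without the 48-hour arrays (others 0.0639 to 0.145). GRIA2 and CHRNB4 did not pass without the 72-hour arrays (0.0849 to 0.349).

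The ID proteins, which hold back neurogenic helix-loop-helix factors, moved apart. ID1 read 1898, 1868 and 1047 with the control virus against 1256 and 1115, 408 and 549, and 265 and 230.0 with shMYCN (log2 difference -1.55 ± 0.20, limma adjusted p = 0.000615) and ID3 329, 248 and 163 (control) and 162 and 148, 42 and 59.7, and 25.5 and 28.5 (shMYCN) (log2 difference -1.69 ± 0.17, limma adjusted p = 0.00016), while ID4 rose (log2 difference 0.80 ± 0.16, limma adjusted p = 0.00464). Control signals of ID1 and ID3 were lower at later hours, and at each hour the shMYCN arrays were lower still. The proneural factor NHLH2 rose (log2 difference 0.50 ± 0.09, limma adjusted p = 0.00384), and the list of ID, HES, proneural and SOX factors gave 7 higher and 5 lower of 35. Of 20 noradrenergic identity genes 3 rose and 5 fell (median -0.04, 0.02 with quantile scaling). LMO3, a cofactor linked to neuroblastoma, read 42.6, 51.3 and 46.7 on the control arrays and 56.8 and 67.3, 104 and 117, and 176 and 181 on the shMYCN arrays (log2 difference 0.98 ± 0.17, limma adjusted p = 0.00291), LIN28B, which blocks let-7 maturation, rose (log2 difference 0.62 ± 0.12, limma adjusted p = 0.00497), and the noradrenaline transporter SLC6A2 fell (log2 difference -0.92 ± 0.14, limma adjusted p = 0.00138). KIT, the receptor of stem cell factor, read 279, 354 and 340.4 with the control virus against 153 and 197, 169 and 238, and 174 and 152 with shMYCN (log2 difference -0.80 ± 0.12, limma adjusted p = 0.00145), the GDNF family receptor GFRA2 also fell (log2 difference -0.55 ± 0.11, limma adjusted p = 0.00493), and ALK differed by 0.21 ± 0.07 (limma adjusted p = 0.046). Of 19 mesenchymal markers 9 fell (47.4 percent) and 1 rose (median -0.32). SNAI2 (SLUG), a repressor of epithelial genes, read 515, 622 and 669 (control) and 371 and 346, 277 and 238, and 175 and 181 (shMYCN) (log2 difference -1.18 ± 0.17, limma adjusted p = 0.00119), and vimentin, VIM, fell by less (log2 difference -0.34 ± 0.07, limma adjusted p = 0.00455). For SNAI2 no shMYCN array reached a control array. Matrix genes split, 12 higher and 9 lower of 82, with the integrin subunit ITGA4 lowest by p (log2 difference -1.39 ± 0.13, limma adjusted p = 0.000108) and the collagen COL1A1 higher (log2 difference 0.67 ± 0.12, limma adjusted p = 0.00283). Without the control array of 48 hours the higher and lower counts were 2 and 1 for identity genes and 0 and 3 for mesenchymal markers, and without that of 72 hours 3 and 2 and 0 and 2. ALK (limma adjusted p 0.0686) missed the 0.05 threshold without the 24-hour control array. ID4, NHLH2, LIN28B, GFRA2 and ALK (0.0523 to 0.145) did not pass without the 48-hour control array. ALK and VIM (0.0527 to 0.167) missed it without the 72-hour control array. ALK (0.195) did not pass with median scaling. ALK (0.0697 to 0.118) missed it without single shMYCN arrays (24 A, 24 B, 48 B, 72 A and 72 B in turn). ID4 and ALK (0.0962 to 0.143) did not pass with the mean of a gene's probe sets. Only ID1, ID3, KIT, ITGA4 and COL1A1 passed without the 48-hour arrays (others 0.0545 to 0.116). ID4, NHLH2, LIN28B, GFRA2, ALK and VIM did not pass without the 72-hour arrays (0.0505 to 0.248).

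Feedback genes of the MAP kinase pathway were called in both directions, more of them higher. Of 24 immediate-early genes and MAP kinase phosphatases 9 rose (37.5 percent) and 2 fell (median 0.21). The gene of the list with the smallest p went down: DUSP16, a MAP kinase phosphatase, read 58.9, 44.8 and 48.9 on the control arrays and 19.3 and 21.1, 11.9 and 20.4, and 15.2 and 14 on the shMYCN arrays (log2 difference -1.02 ± 0.12, limma adjusted p = 0.000344), with no overlap between the groups. The phosphatase DUSP6 read 50.4, 67 and 81 with the control virus against 75.3 and 63, 125 and 117, and 188 and 206 with shMYCN (log2 difference 0.74 ± 0.13, limma adjusted p = 0.00305) and DUSP4 53.4, 86.6 and 114 (control) and 76.2 and 76.7, 125 and 143, and 240.0 and 237 (shMYCN) (log2 difference 0.64 ± 0.11, limma adjusted p = 0.00277). Control signals of DUSP6 and DUSP4 were higher at later hours as well, and the groups overlapped between hours but not within an hour. In TGF-beta and BMP signalling 9 of 39 rose and 8 fell: the ligand TGFB2 rose (log2 difference 0.72 ± 0.12, limma adjusted p = 0.00204), and the receptor ACVR2B (log2 difference -0.87 ± 0.15, limma adjusted p = 0.00235) and the BMP effector SMAD5 (log2 difference -0.72 ± 0.13, limma adjusted p = 0.0032) fell. Among 45 Notch, WNT and Hedgehog genes 9 rose and 4 fell, with the Notch coactivator MAML3 (0.84 ± 0.14) higher and the WNT receptor ligase ZNRF3 (-0.81 ± 0.14) lower. RHOBTB3, a BTB domain protein, fell (log2 difference -1.36 ± 0.16, limma adjusted p = 0.000381). With the control array of 48 hours left out the higher and lower counts were 4 and 1 for MAP kinase genes, 2 and 3 for TGF-beta and BMP and 2 and 1 for Notch, WNT and Hedgehog, and without that of 72 hours 4 and 1, 2 and 4, and 3 and 1. DUSP16 could not be tested with the mean of its probe sets because that mean fell under the filter. Only DUSP16 and RHOBTB3 passed without the 48-hour arrays (others 0.0545 to 0.0717).

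Stress and death genes showed no common direction. Of 26 p53 target genes 3 rose and 2 fell (median 0.00): GADD45A, which responds to DNA damage and growth arrest, rose (log2 difference 0.56 ± 0.10, limma adjusted p = 0.00342), as did TP53INP1 (log2 difference 0.65 ± 0.12, limma adjusted p = 0.00359), and SESN2 fell (log2 difference -0.57 ± 0.13, limma adjusted p = 0.00861). MCL1, an antiapoptotic BCL2 protein, read 2081, 1874 and 1959 on the control arrays and 1582 and 1474, 993 and 1253, and 1053 and 1020.0 on the shMYCN arrays (log2 difference -0.70 ± 0.10, limma adjusted p = 0.000842), with no overlap. The proapoptotic BCL2L11 (BIM) rose (log2 difference 0.66 ± 0.13, limma adjusted p = 0.00472), and APAF1 of the apoptosome fell (log2 difference -0.53 ± 0.11, limma adjusted p = 0.00737), among 3 higher and 6 lower of 24. In the integrated stress and unfolded protein responses 4 of 36 rose and 4 fell, TRIB3 being higher (log2 difference 0.60 ± 0.11, limma adjusted p = 0.00333) and CEBPB lower (log2 difference -0.60 ± 0.13, limma adjusted p = 0.00678). Of 20 interferon and virus response genes 2 rose and 2 fell; IFIT5, a binder of viral RNA, fell (log2 difference -1.27 ± 0.10, limma adjusted p = 7.52e-05). In hypoxia response 4 of 23 rose and 4 fell. Higher and lower counts for p53 targets, BCL2 family and stress lists were 3 and 0, 0 and 2, and 1 and 0 without the 48-hour control array, and 2 and 0, 1 and 1, and 2 and 1 without the 72-hour one. SESN2, BCL2L11, APAF1 and CEBPB (limma adjusted p 0.0539 to 0.0921) missed the 0.05 threshold without the 48-hour control array. SESN2 and APAF1 (0.0621 to 0.0641) did not pass without the 72-hour control array. TP53INP1 and BCL2L11 (0.0942 to 0.109) missed it with the mean of a gene's probe sets. Only MCL1 and IFIT5 passed without the 48-hour arrays (others 0.0618 to 0.112). Only TP53INP1, MCL1 and IFIT5 passed without the 72-hour arrays (others 0.0513 to 0.102).

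Lists of chromatin regulators were called in both directions, some of them near the shares of all genes, and held strong single falls. Of 390 C2H2 zinc finger ZNF genes 58 rose (14.9 percent, close to the 15 percent of all genes) and 13 fell (3.33 percent, median 0.10), with ZNF680 (0.85 ± 0.14) the rise of smallest p and ZNF317 (-0.74 ± 0.09) and ZNF207 (-0.65 ± 0.09) among the falls; members of this family share sequence. Of 83 histone deacetylases, demethylases and methyltransferases 12 rose and 7 fell (14.5 and 8.43 percent, near the 15 and 10.3 percent of all genes). HDAC3, the deacetylase of the NCOR complex, read 396, 399.5 and 419 with the control virus against 235 and 224, 118 and 146, and 119.7 and 108 with shMYCN (log2 difference -1.33 ± 0.15, limma adjusted p = 0.000299), and HDAC2 fell by less (log2 difference -0.68 ± 0.09, limma adjusted p = 0.00055). The demethylase KDM1B fell as well (log2 difference -0.88 ± 0.11, limma adjusted p = 0.000541). For HDAC3 no shMYCN array reached a control array. Among Polycomb and DNA methylation genes 7 of 35 rose and 7 fell: PCGF6 of a non-canonical Polycomb complex fell (log2 difference -1.06 ± 0.14, limma adjusted p = 0.000765), and the methyltransferase DNMT3B rose (log2 difference 0.65 ± 0.13, limma adjusted p = 0.00498). MBD2 was called lower at -1.31 ± 0.12 and MBD5 higher at 1.38 ± 0.26, but other probe sets of MBD2 differed by -0.11 and 0.20 and one of MBD5 by 0.03. Among remodellers 7 of 55 rose and 5 fell (12.7 and 9.09 percent, near the shares of all genes). ACTL6B and SS18L1, subunits of the neuronal form of SWI/SNF, were higher (0.67 ± 0.13 and 0.42 ± 0.08, limma adjusted p 0.00365 and 0.00337). CHD2, called lower at -0.45, gave 0.06 with the mean of its probe sets. Counts of higher and lower genes were 11 and 5 for ZNF genes, 1 and 5 for histone enzymes and 5 and 2 for Polycomb and methylation genes without the 48-hour control array, and 13 and 5, 0 and 5 and 4 and 2 without the 72-hour one. CHD2 (limma adjusted p 0.121) missed the 0.05 threshold without the 48-hour control array. CHD2 (0.11) did not pass without the 72-hour control array. CHD2 (0.605) missed it with the mean of a gene's probe sets. ZNF680, DNMT3B, MBD5, ACTL6B, SS18L1 and CHD2 did not pass without the 48-hour arrays (0.0566 to 0.138). DNMT3B, ACTL6B, SS18L1 and CHD2 did not pass without the 72-hour arrays (0.0542 to 0.164).

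Long noncoding RNAs were more often higher than lower. Of 521 tested 95 were higher (18.2 percent) and 18 lower (3.45 percent), and 35 were at least 1.5-fold higher against 3 at least 1.5-fold lower. These counts include higher ones, such as LINC01234 and LINC01503, that passed the filter on dim signals only through the shMYCN arrays. They also include lower ones, such as ARRDC1-AS1, that passed it only through the control arrays. For such genes a difference follows from the filter, so part of the tilt may do so. Protein-coding genes gave 1670 higher and 1200 lower of 11136 (15 and 10.8 percent), with 395 and 408 at least 1.5-fold. The difference between the classes was not tested, and the array does not separate a noncoding RNA from an overlapping gene on the same strand.

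In the network of MYC and its partners 3 of 16 tested genes rose and 1 fell, with a median of 0.02. FBXW7, the ligase component that marks MYC proteins for breakdown, rose (log2 difference 0.58 ± 0.11, limma adjusted p = 0.00443), as did MXI1, a MAX partner that opposes MYC (log2 difference 0.40 ± 0.10, limma adjusted p = 0.0124), and AURKA. ZBTB17 (MIZ1), a zinc finger partner through which MYC represses genes, fell (log2 difference -0.46 ± 0.11, limma adjusted p = 0.013). MAX, the partner of MYCN, differed by 0.14 ± 0.10 (limma adjusted p = 0.34) and was not called, nor was the antisense transcript MYCNOS at 0.22 ± 0.11, which overlaps MYCN on the other strand. The remaining members did not pass: MXD1 (0.22 ± 0.11), MXD3 (0.06 ± 0.16), MNT (-0.01 ± 0.09), MLX (-0.21 ± 0.08), MLXIP (-0.13 ± 0.11), MYCL (0.02 ± 0.12), MYCBP2 (0.01 ± 0.09), TRRAP (-0.23 ± 0.11) and HUWE1 (-0.11 ± 0.08), with limma adjusted p from 0.0601 to 0.934. When the 48-hour control array was left out 0 genes of the network were higher and 0 lower, and without that of 72 hours 1 and 0. FBXW7, MXI1, AURKA and ZBTB17 (limma adjusted p 0.0527 to 0.136) missed the 0.05 threshold without the 48-hour control array. MXI1, AURKA and ZBTB17 (0.0512 to 0.0939) did not pass without the 72-hour control array. FBXW7 and ZBTB17 (0.0601 to 0.134) missed it with the mean of a gene's probe sets. None of FBXW7, MXI1, AURKA and ZBTB17 passed without the 48-hour arrays (0.0684 to 0.141). None of FBXW7, MXI1, AURKA and ZBTB17 passed without the 72-hour arrays (0.0689 to 0.13).

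Set against the mean of the arrays without virus, the control arrays stayed near 0 in the lists of replication, nucleotides and guidance, and the shMYCN arrays lay further away. The median of the licensing list was 0.02, 0.00 and -0.01 on the control arrays and -0.02 and -0.03, -0.13 and -0.18, and -0.57 and -0.71 on the shMYCN arrays of 24, 48 and 72 hours. The nucleotide list gave 0.02, 0.04 and 0.01 on the control arrays and -0.01 and -0.07, -0.10 and -0.13, and -0.48 and -0.51 on the shMYCN arrays. The guidance list gave -0.02, 0.05 and 0.08 on the control arrays and 0.16 and 0.20, 0.35 and 0.39, and 0.39 and 0.43 on the shMYCN arrays, and the neural adhesion list 0.02, 0.02 and 0.07 on the control arrays and 0.19 and 0.21, 0.45 and 0.32, and 0.55 and 0.49 on the shMYCN arrays. Over all genes the median was 0.04 to 0.06 on the shMYCN arrays and 0.00 to 0.01 on the control arrays. The ribosomal protein list was uneven between arrays of 1 group, with 0.16, 0.20 and 0.06 on the control arrays and 0.14 and -0.09, 0.11 and 0.09, and 0.12 and -0.13 on the shMYCN arrays. Hour 0 differs from the virus arrays in time as well as in virus, so these values are a description with no test.

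**Figure D5:**
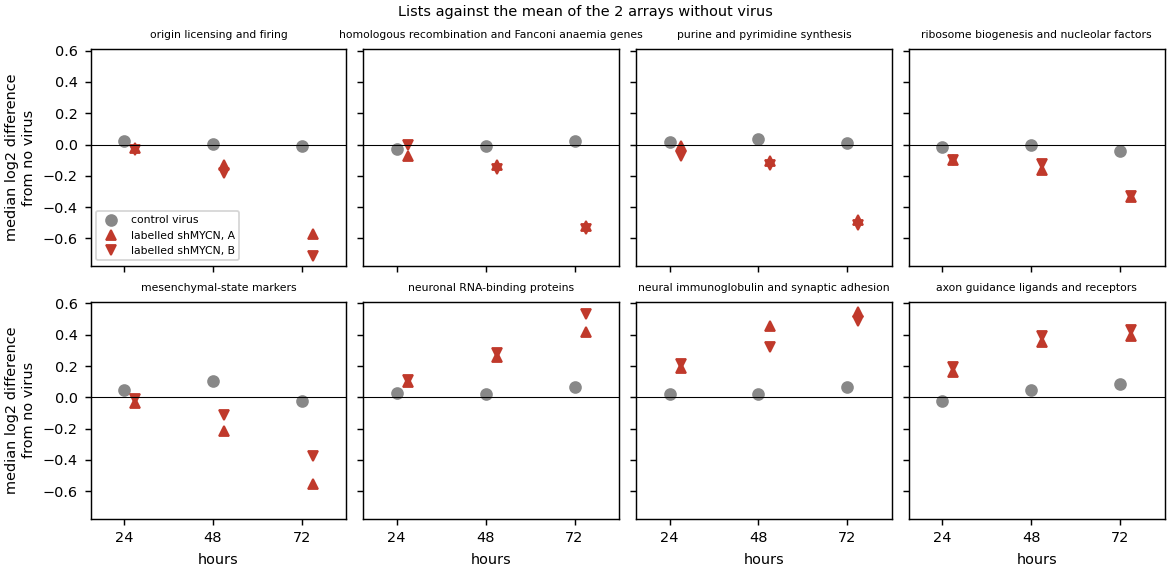
Median log2 difference from the mean of the 2 arrays without virus (vertical axis) against hours after virus (horizontal axis) for 8 gene lists, with control arrays as grey circles and shMYCN arrays as red triangles, drawn slightly to the right. The control arrays stay near 0 at every hour, while at 72 hours the licensing list reaches -0.57 and -0.71 on the shMYCN arrays.

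RefSeq promoter windows were found for 9693 of the genes tested and not for 2172. Among genes called and at least 1.5-fold lower, 331 had a window, and E2F letters stood in 8.76 percent of these, against 4.62 percent of all windows and 1.53 percent of 326 windows of genes at least 1.5-fold higher. The E-box CACGTG stood in 13.3 percent of the lower, 9.82 percent of the higher and 10.7 percent of all windows. CCAAT stood in 37.2, 29.4 and 37.1 percent, TTTGAA in 9.06, 10.4 and 9.46 percent, the cAMP response letters TGACGTCA in 3.93, 3.07 and 3.44 percent, and TATAAA in 6.04, 7.67 and 5.21 percent. Windows differ in base composition too, with a median of 29 CG steps in the lower, 24 in the higher and 27 in all windows, and median G or C contents of 65.7, 64.8 and 65.7 percent. Letters were counted on both strands, overlaps between kinds included, and a match describes the window, not binding of a factor.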

How the data were processed

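Total RNA of IMR32 cells was measured on 11 one-colour Affymetrix arrays, 9 of them with virus. The deposited values are linear intensity signals per probe set, made by the authors with MAS5 in GCOS, per the submitters' processing notes, and scaled to a trimmed mean of 100, per the labels; versions and background correction are not given in the sources used here. No between-array normalization was added. Of 54675 probe sets, 62 were controls, 41091 had 1 gene symbol, 1801 several and 11721 none; 41037 symbols were updated through Entrez identifiers with the RefSeq table (GRCh38.p14). A gene was represented by its brightest probe set over the 9 arrays (19775 genes), and the dimmest 40 percent (signal under 14.97) were left out. No column of per-sample values was left unused.

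Log2(signal + 16) was fitted with limma 3.58.1 (R 4.3.3; lmFit, eBayes with trend) on virus plus hour, which left 5 residual degrees of freedom with 7.01 from the prior, against 3 residual for virus by hour. P-values were adjusted by Benjamini-Hochberg over the 11865 genes tested. On simulated data for the virus comparison (11865 genes), 33 of 50 genes changed 1.5-fold were recovered, 46 of 50 changed 2-fold, 50 of 50 changed 3-fold and 50 of 50 changed 4-fold, with 12 false calls.

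Named genes were the MYCN probe sets; the 12 called genes in each direction whose nearest shMYCN array lay furthest from the control array of its hour; up to 4 called members of each list by smallest adjusted p, the last replaced by the best of the other direction; the 5 smallest interaction p-values; and all tested members of the MYC network and antiproliferative lists. Values are printed for part of the 333 genes so named. Members, lists and rules were chosen with earlier results of these data known. Promoter windows come from RefSeq. Alternatives changed the offset, scaling, filter, probe set rule, variance model, blocks, hours, arrays and threshold.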

Additional observations from a re-analysis of the deposited data

Results flagged for a closer look

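For 67 of the genes named by the rule, the difference between the viruses itself changed over the hours in the limma F test of virus by hour (adjusted p under 0.05), and each value below is the log2 difference at 72 hours minus that at 24 hours. It was positive for 24 genes and negative for 43, and for each of the 67 the size at 72 hours was greater than at 24 hours. In DNA replication, repair and cell division the change was downwards for RRM2 (-1.88), MCM5 (-1.52), MCM3 (-1.21), TFDP1 (-1.34), ORC1 (-1.12), ORC3 (-0.99), POLE2 (-1.23), POLE4 (-1.08), RAD54L (-1.25), RAD51AP1 (-1.09) and MSH6 (-1.18). Histone genes changed upwards, with H2AC25 (1.78), H2BC12 (1.52) and H2AC6 (1.35), as did the CDK inhibitor CDKN1C (1.60).

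Genes of nucleotide, serine, sugar and sterol metabolism went down, with ADSL (-1.14), IMPDH2 (-1.15), PHGDH (-1.07), PFKM (-0.90) and DHCR7 (-1.24), and muscle enolase ENO3 (1.04) went up. For RNA and protein production the values were EIF2S2 (-1.15), IARS1 (-1.13), GAR1 (-0.97), NSUN2 (-1.10), TRMT5 (-1.09), SF3A3 (-0.85), MAF1 (-1.89), PSMC3 (-0.96) and MANF (-0.88) downwards and KPNA5 (1.32) and METTL23 (0.88) upwards. Mitochondrial genes gave TIMM17A (-1.88), NDUFB2 (-1.83), RARS2 (-1.13) and COX5B (-0.80).

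Vesicle and autophagy genes gave GABARAP (-1.91), ATP6V1D (-1.85), SAR1A (-1.08) and RAB2B (-1.14). Upward changes among genes of neurons and secretion were STMN2 (3.08), SERPINF1 (1.89), CELF3 (1.76), CNTN1 (1.46), DCX (1.39), SYT4 (1.16), SYT13 (1.05), DDC (1.12), SLC1A1 (1.07), KIF3B (0.87), CACNA2D1 (0.86), LMO3 (1.22) and LIN28B (0.86). Secreted factors did not share this direction, as STC1, listed next, changed downwards. In signalling and chromatin the downward values were STC1 (-2.07), YAP1 (-1.36), USP18 (-1.35), ID1 (-1.34), SNAI2 (-1.32), RAP1A (-1.23), RHOBTB3 (-1.18), ZNRF3 (-1.03) and HDAC3 (-0.99), and the upward ones MBD5 (2.05), MAML3 (0.99), RHOBTB1 (1.01) and DNMT3B (0.82). The membrane protein SMCO4 (-1.27) changed downwards.

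With the duplicates of each hour as the only source of spread, leaving out 1 shMYCN array moved the number of genes with such a change from 348 to between 33 and 2138. Outside the gene measurements, the poly-A RNA spikes that are added at labelling read 2.29-fold of the control mean on shMYCN array A of 48 hours.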

How the results depend on the processing

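Of 8282 pairs of a named gene and 1 of 25 alternatives, 7319 kept direction and call, 942 lost the call, 17 gained it and 4 turned sign, and 62 of the 314 called genes kept their call under every alternative. The 3007 calls (1781 higher, 1226 lower) became 239 (84 and 155) without all arrays of 48 hours, 639 (301 and 338) without those of 72 hours and 1238 (685 and 553) at an adjusted p under 0.01, and between 881 and 4156 (470 to 2401 and 411 to 1755) with single arrays left out, lowest without the control array of 48 hours and highest without that of 24 hours. All 11 arrays with 7 group means gave 4527 calls, 1873 of them lower. The letters A and B did not pair the arrays: the A minus B differences of 2 hours correlated across genes at -0.05, 0.04 and 0.10. With the letter as a fixed replicate block 2761 genes were called, and with the series as a random replicate block 4663 (2770 and 1893), its estimated correlation being -0.16. Calls of at least 1.5-fold, 848 in all, numbered 422 with an offset of 64, 466 with the mean of a gene's probe sets, 1597, 198 and 359 without all arrays of 24, 48 and 72 hours, and 391 to 1598 with single arrays left out. The 348 virus by hour calls were 20 without the filter on dim genes, 100 with the mean of probe sets, 150 without the variance trend, 67 at an adjusted p under 0.01 and 33 to 2138 without 1 shMYCN array, and the test could not be fitted without a control array. Median scaling gave 1312 higher and 1479 lower genes. With the mean of probe sets CHD2 turned from -0.45 to 0.057, ETF1 from -0.25 to 0.0089 and NUP98 from 0.51 to -0.18, and MYCN turned from -0.02 to 0.11 with quantile scaling. Apart from settings that have fewer arrays, a stricter threshold or other genes tested, the cause of these shifts was not tested. With 1 control array an hour, the spread between control cultures at an hour was not measured, and dim probe sets limit what could be seen.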
